A study of Solanum lycopersicum with 4 samples.

Results

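The transcripts described here are those of ribosomal proteins, the protein building blocks of the ribosome, in the fruit of tomato (Solanum lycopersicum). A cDNA was taken as a member if its annotation contained the words "ribosomal protein", which 88 of the 5373 cDNAs in the deposited tables did. By the wording of the annotation, 29 were proteins of the cytosolic large subunit, 20 of the cytosolic small subunit and 33 of the ribosomes of plastids and mitochondria. The remaining 6 mentioned a ribosomal protein in their name or family entry but carried the name or domain of an enzyme, among them 3 S6 kinases. Degradome libraries had been made from whole fruit of the variety Ailsa Craig, grown in a greenhouse, with 1 library for each of 4 stages. The stages were 5 days after pollination (very young fruit), mature green (full size, unripe), breaker (when colour first changes) and, later still, 7 days after breaker, which the deposited tables call red ripe. Values in a row are given in this order. The question put to the members was how many tags each carried at the 4 stages, how cytosolic and organelle proteins compared, and which genes departed from the group.

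A eukaryotic ribosome has a small (40S) subunit, which reads the mRNA, and a large (60S) subunit, which joins amino acids. Plastids and mitochondria keep their own bacterial-type ribosomes with 30S and 50S subunits, and most of their proteins are encoded in the nucleus. Cytosolic ribosomal protein mRNAs are among the most abundant mRNAs of growing tissue, and young tomato fruit is a tissue of active cell division. Plant genomes usually hold several gene copies for each ribosomal protein.

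The assay was PARE, which ligates an adapter to the free 5′ ends of uncapped, polyadenylated RNA and so counts RNA molecules that had been cut or were being degraded. The value used for each gene is the number of tags on its whole cDNA in a library, in tags per 10000000 (TP10M), as the authors deposited it. Such a value depends both on how much mRNA was present and on how quickly it was broken down, and these cannot be told apart. Nor can fewer cells of a type be told apart from less RNA per cell, since whole fruit was used. Longer cDNAs can carry more tags and no lengths were used, so levels are compared between stages of 1 gene and not between genes. With 1 library per stage there is no replicate check, and no test was made. The depth of the libraries is unknown, so no counting interval is given.

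A gene had a value in a library only where the authors' tables listed a candidate small RNA site on its cDNA there. Of the 88 members, 80, 71, 59 and 74 had a value in the 4 libraries in stage order. These shares of 90.9%, 80.7%, 67.0% and 84.1% were above those of all cDNAs, at 69.2%, 62.9%, 35.0% and 55.4%. Listed members also carried more tags, with a median of 1420 against 267 TP10M at 5 days after pollination. The shares were not matched for this, and its part in them was not tested. A value in all 4 libraries was present for 54 members (61.4%), against 1044 of all cDNAs (19.4%). By class this was so for 22 of the 29 large subunit members, 17 of the 20 small subunit members, 14 of the 33 organelle members and 1 of the 6 enzyme-like members. A further 13 members had 3 values, 8 had 2 and 13 had only 1.

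The annotation's wording is not always that of the encoded protein. Solyc01g096590 (called 30S S10) and Solyc09g007350 (called 30S S12) were counted as organelle members by their names, while their protein families are described as eukaryotic or archaeal. Solyc03g111050, a plastid RNA-binding protein with an S1 domain, was counted there too. Among the large subunit members, Solyc12g096220 is called 60S L7 but has the domain of a Rop nucleotide exchanger, a regulator of small GTPases. Solyc02g084380 and Solyc05g054990, counted as small subunit by an S6 family entry, carry the family of the bacterial S6 protein, and the L32 genes Solyc04g005590 and Solyc05g013190, counted as large subunit, that of the bacterial L32 protein. In an alternative, the name and the family were read together. Solyc01g096590 and Solyc09g007350 were then moved to the small subunit, and other conflicting or undecided members were left out. Organelle members were kept only where the annotation named a bacterial, organelle, chloroplast or mitochondrial type. Others named 50S or 30S were left out for lack of such a word, without a conflict. This gave 25 large subunit, 19 small subunit and 8 organelle members.

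The members had most tags in the youngest fruit. Their median was 1420 TP10M in the library of 5 days after pollination, and 813, 802 and 867 TP10M in the later 3, over the members with a value in each library. The medians of all cDNAs were 267, 240, 223 and 257 TP10M. The large subunit medians were 3527, 1545.5, 1021 and 1455 TP10M in stage order, and the small subunit medians 3074, 1493, 1259 and 1611. Organelle members had medians of 491, 289, 222.5 and 480 TP10M, over 30, 21, 18 and 24 genes. Their first and last medians are therefore not of the same genes. Over the 22 organelle members compared between those libraries, the median log2 ratio was -0.66. The plot of each member's tags by stage shows this course as a fan of lines that slope down from the first stage.

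**Figure D1:**
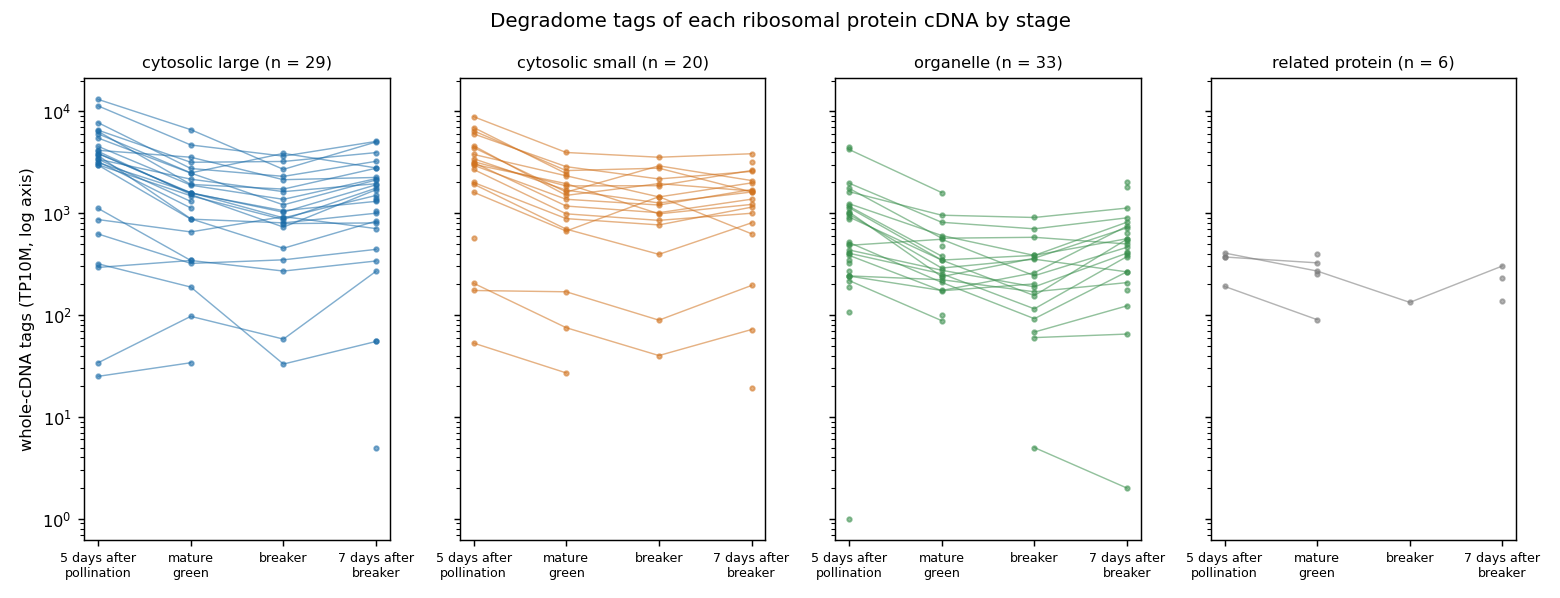
Whole-cDNA tags (TP10M, log axis) of the 88 members at the 4 stages, 1 library per stage, with 1 line per gene in panels for the 4 classes and single points where neighbouring stages had no value. Of the 54 genes with 4 values, 48 were highest at 5 days after pollination and 39 were lowest at breaker.

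Of the 54 members with 4 values, 48 (88.9%) were highest at 5 days after pollination, against 39.3% of the 1044 cDNAs with 4 values. They comprised 19 of 22 large subunit, 16 of 17 small subunit and 12 of 14 organelle members, and the 1 enzyme-like member. The lowest value was at breaker for 39 members (48.6% of all cDNAs were lowest there), at mature green for 10 (13.7%), in the last library for 4 (15.2%) and in the youngest fruit for 1 (22.5%). The low point depended on scaling. With median-of-ratios size factors the lowest stage was mature green for 19 members (35.2%), breaker for 19 (35.2%) and 7 days after breaker for 14 (25.9%). Of the 1044 cDNAs, 17.6%, 26.2% and 24.3% were then lowest at these stages. Still 46 members (85.2%) were highest at 5 days after pollination, against 31.9% of the 1044 cDNAs.

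Summed over the 54, the tags came to 166677, 75143, 60872 and 77305 TP10M. They were 14.2%, 6.70%, 5.28% and 5.95% of the tags of the 1044 cDNAs with 4 values. The sum was 2.22-fold lower at mature green, and 2.16-fold lower in the last library, than at 5 days after pollination. Against the youngest fruit, the other 990 cDNAs summed to a value 1.04-fold higher at mature green and 1.22-fold higher in the last library. By class the sums were 95001, 42703, 31182 and 43021 TP10M for the large subunit, 58328, 26326, 24665 and 26086 for the small subunit, and 12942, 5844, 4892 and 7895 for organelle members. The 3 classes were lower at mature green by nearly the same factor, 2.22-fold, 2.22-fold and 2.21-fold.

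**Figure D2:**
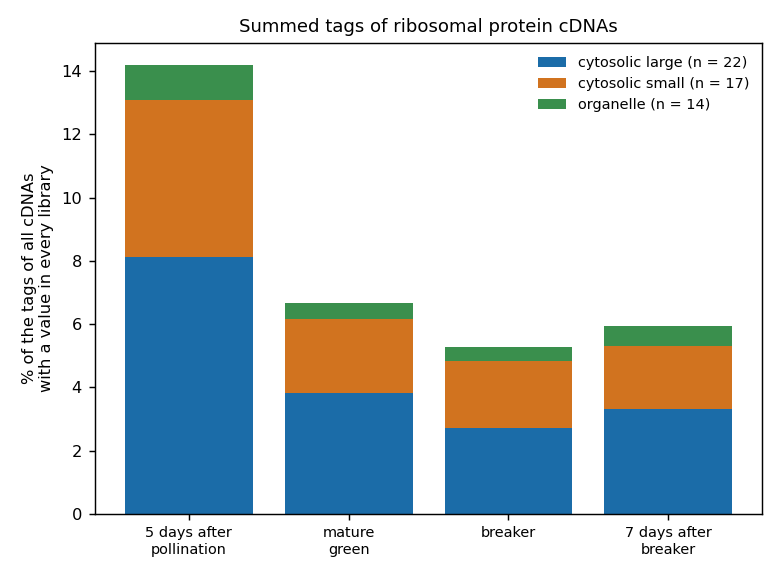
Summed whole-cDNA tags of the cytosolic large (n = 22), cytosolic small (n = 17) and organelle (n = 14) members with 4 values, as a percentage of the tags of all 1044 cDNAs with 4 values, in each of the 4 libraries. The stack is tallest at 5 days after pollination, and the large subunit is the widest band at each stage.

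A gene was called higher or lower between 2 libraries where it had a value in both, the values summed to at least 50 TP10M, and they differed by at least 2-fold after 1 TP10M was added to each. From 5 days after pollination to mature green, 66 members could be compared. Of these, 43 were lower and 1 was higher at mature green, against a background of 18.6% lower and 10.4% higher among all 2284 cDNAs compared. The lower members were 65.2% of those compared. Their median log2 ratio was -1.17, that of all cDNAs -0.23, and 62 of the 66 ratios were below 0. The large subunit had 16 lower and 1 higher of 26 (median log2 -1.20), the small subunit 14 lower of 19 (-1.18) and the organelle members 12 lower of 18 (-1.29). The enzyme-like members had 1 lower of 3 (-0.59). The lower one was Solyc10g080160, called 30S S9-like but with a sterol methyltransferase domain, with 191, 90 and 137 TP10M and no value at breaker. The medians of the 3 ribosomal classes were close to each other, as the plot of log2 ratios shows. Median-of-ratios size factors shift this comparison by 0.12 log2 units, and with them 36 members were lower and 1 was higher.

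**Figure D3:**
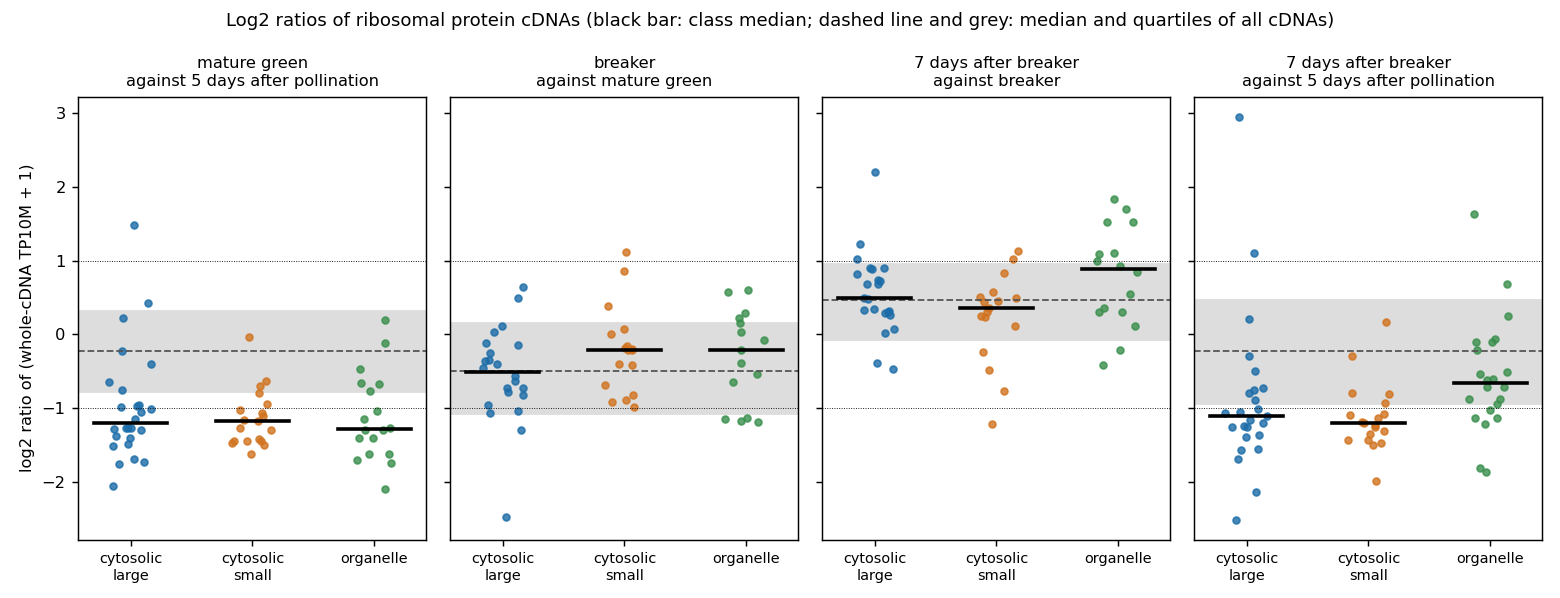
Log2 ratios of whole-cDNA tags (TP10M plus 1) of the ribosomal protein members by class in the 4 comparisons of libraries, 1 point per gene, with class medians as black bars and the median and quartiles of all cDNAs as a dashed line and grey band. In the first panel the class medians lie at -1.20, -1.18 and -1.29, below the grey band, and in the middle panels they lie inside it.

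Among large subunit proteins, L23a (Solyc09g005720), which sits beside the exit of the nascent chain, had 13068, 6595, 2688 and 4995 TP10M in stage order. L3 (Solyc01g104590), which reaches towards the catalytic centre, had 11272, 4666, 3626 and 5058 TP10M. L18 (Solyc01g099900) had 6518, 3156, 3214 and 3927 TP10M. In all 3 the value in the youngest fruit was the highest of the 4. L13 (Solyc08g075700) was among the 5 lowest ratios at mature green, with 6344, 1912, 1722 and 2759 TP10M and a log2 ratio of -1.73. L14 (Solyc06g083820) had the lowest ratio of the large subunit, with 3673, 880, 452 and 835 TP10M and log2 -2.06. L18a (Solyc06g065590) had 2957, 873, 802 and 998 TP10M and log2 -1.76.

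Among small subunit proteins, S5 (Solyc10g078620) had 8843, 3937, 3536 and 3827 TP10M. SA (Solyc06g072120), the laminin-receptor-like protein of the small subunit, had 6924, 2440 and 3156 TP10M and no value at breaker. A gene of the S4 family (Solyc04g005680), whose bacterial counterpart binds rRNA early in assembly, had 5998, 2857, 2165 and 2566 TP10M. These small subunit genes followed the course of the large subunit genes, with more than 2-fold between the youngest fruit and each later library that had a value.

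Among organelle members, a pair of genes named 50S L5 had 1968, 813, 701 and 899 TP10M (Solyc07g055230) and 1623, 954, 906 and 1121 TP10M (Solyc10g007980). 50S L4 (Solyc07g061900) had the lowest ratio of all members at mature green, with 1025, 238, 361 and 718 TP10M and log2 -2.10. 50S L34 (Solyc01g056780) had 972, 289, 353 and 265 TP10M and log2 -1.75. The 30S S9 gene Solyc01g068530 had 4213, 1591 and 1816 TP10M, with no value at breaker, while its namesake Solyc04g079790 had a value only at 5 days after pollination, of 1014 TP10M. Of the members whose name and family conflict, Solyc01g096590 had values only in the youngest fruit, of 4452 TP10M, and in the last library, of 2037. Solyc09g007350 had 1749, 567, 579 and 498 TP10M. The highest values of the organelle class thus include genes whose families are not of organelle type.

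The genes annotated as S6 kinases had few values. Enzymes of that name phosphorylate the small subunit protein S6, some of them in the TOR growth pathway, and the annotation does not say whether these do. Solyc07g065710 had 371, 325 and 232 TP10M, with no value at breaker. Solyc10g005770 had only 367 TP10M at 5 days after pollination, and Solyc04g015130 only 254 at mature green. Polyribonucleotide nucleotidyltransferase (Solyc09g097910), an RNA-degrading enzyme, had only 394 TP10M at mature green. Solyc01g081520, called 30S S2 but with a sugar-nucleotide transferase domain, had 406, 270, 133 and 303 TP10M. None of these 5 was called between mature green and 5 days after pollination, where Solyc07g065710 and Solyc01g081520 could be compared.

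From mature green to breaker, the members' median ratio was close to that of all cDNAs. Of 55 compared, 9 were lower (16.4%) and 1 was higher, against 28.2% lower and 8.68% higher of all 1394 cDNAs compared. The median log2 ratio was -0.39 for members and -0.50 for all cDNAs. It was -0.51 for 22 large subunit members (4 lower), -0.21 for 17 small subunit members (1 higher) and -0.21 for 15 organelle members (4 lower). The organelle median depends on the choice of members and on scaling: it was -1.15 over 5 genes when name and family were read together, and 0.21 with size factors. This step depends on scaling, since median-of-ratios size factors shift its log2 values by 0.42. With them, 4 of 55 members were higher and 1 was lower, against 14.5% higher and 16.2% lower of 1396 cDNAs. Both member shares were below those of all cDNAs. Among these few calls the share of higher ones was 80% in place of 10%. The member median was 0.026 and that of all cDNAs -0.079. L12 (Solyc04g050370), of the L11 family that forms the base of the ribosomal stalk, had the lowest ratio, with 318, 188, 33 and 55 TP10M and log2 -2.47, and was the 1 member still lower with size factors. L23a was next at log2 -1.29, followed by mitochondrial L43 (Solyc04g014390) at -1.19, mitochondrial 54S L4 (Solyc03g114050) at -1.18 and 30S S10-like (Solyc10g006030) at -1.15.

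From breaker to 7 days after breaker, 57 members were compared, of which 12 were higher (21.1%) and 1 was lower, against 23.4% higher and 7.26% lower of all 1336 cDNAs. The share of higher members was thus near that of all cDNAs, and so was the median log2 ratio, at 0.49 against 0.46. Of the 12 higher members, 6 were among 16 organelle members, 3 among 23 large subunit members, 2 among 17 small subunit members, and 1 was the enzyme-like Solyc01g081520. The class medians were 0.88 for organelle members, 0.49 for the large subunit and 0.36 for the small subunit. They depend on the choice of members. When name and family were read together they were 0.73 over 6 organelle genes, 0.68 over 21 large subunit genes and 0.28 over 16 small subunit genes. The organelle and large subunit medians were then close to each other. The organelle sum over the 14 genes with 4 values was 1.61-fold higher than at breaker, and the cytosolic sum over 39 genes 1.24-fold higher. Whether the classes differ beyond the spread between fruits was not tested. Scaling shifts this step by -0.48 log2 units. With size factors, 5 of 57 members were higher and 2 lower, against 8.96% higher and 13.6% lower of 1339 cDNAs. The share of higher members was thus again near that of all cDNAs. Among these few calls the share of higher ones was 71.4% in place of 92.3%. The member median was 0.011 and that of all cDNAs -0.019.

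The 3 organelle genes with the largest ratios at this step each had their lowest value at breaker. 30S S10-like (Solyc10g006030) had 1131, 346, 155 and 556 TP10M and a log2 ratio of 1.84. 50S L29 (Solyc03g097950) had 404, 254, 115 and 375 TP10M and log2 1.70. Mitochondrial 54S L4 (Solyc03g114050) had 515, 209, 92 and 266 TP10M and log2 1.52. These 3 were also lower at breaker than at mature green, and since both ratios share the breaker library, a low value there enters both. Not all organelle genes had this pattern. 30S S6 (Solyc01g058190) had a log2 ratio of 1.52 with 260 TP10M at breaker, above its 174 at mature green. 50S L12-2 (Solyc02g092300) had only 60 TP10M at breaker and a log2 ratio of 0.11.

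Between the ends of the series, 69 members were compared. Of these, 36 were lower in the last library (52.2%) and 3 were higher, against 23.7% lower and 13.7% higher of all 2047 cDNAs. The median log2 ratio was -1.02, and that of all cDNAs -0.23. This comparison shares the library of 5 days after pollination with that of mature green, so the 2 results are not independent. The large subunit had 16 lower and 2 higher of 25 (median log2 -1.11), the small subunit 14 lower of 19 (-1.21), and the organelle members 6 lower and 1 higher of 22 (-0.66). The enzyme-like members had none called of 3 (-0.48). Cytosolic members together had a median log2 ratio of -1.17 over 44 genes. The organelle median was -0.71 over 6 genes when name and family were read together.

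A member was said to depart from the group where its log2 ratio lay at least 1 from the median of the members compared. This was so for 6 of 66 members between 5 days after pollination and mature green, all 6 above the median, and for 4 of 55 between mature green and breaker, 3 above and 1 below. It was so for 7 of 57 between breaker and 7 days after breaker, 5 above and 2 below, and for 9 of 69 between the ends, 7 above and 2 below. These are 9.09%, 7.27%, 12.3% and 13.0% of the members. Of all cDNAs, 26.4%, 30.5%, 22.8% and 35.1% lay as far from their own median. The 2 sets were not matched for tags, of which members had more, with a median of 1420 against 267 TP10M at 5 days after pollination. Whether members held together more closely than other cDNAs with as many tags was not tested. The departures fell on 18 genes, shown in the plot of departing members.

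**Figure D4:**
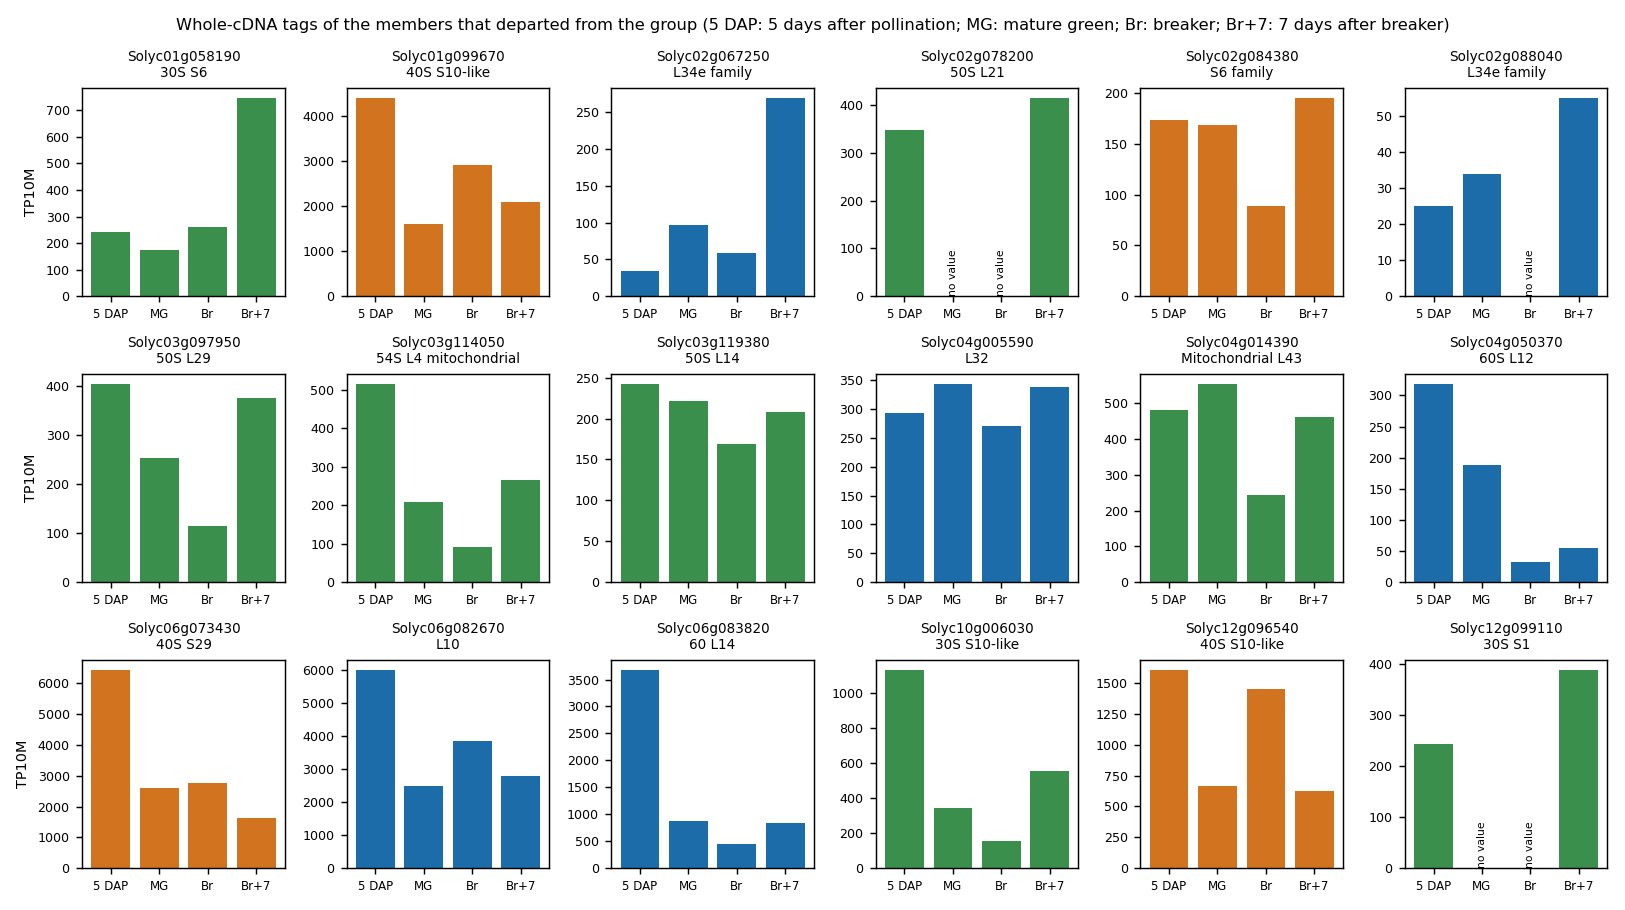
Whole-cDNA tags (TP10M, axes from 0 and scaled to each gene) at the 4 stages for the 18 members that departed from the group in at least 1 comparison. Bars are blue for cytosolic large, orange for cytosolic small and green for organelle members, 1 library per bar. Both L34e family genes and 30S S6 are tallest at 7 days after breaker, and both 40S S10-like genes have a second peak at breaker.

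The member that departed farthest was Solyc02g067250, of the large subunit family L34e, with 34, 97, 58 and 269 TP10M. Against the youngest fruit its log2 ratio was 1.49 at mature green and 2.95 in the last library, and from breaker to the last library it was 2.19. It was the only member called higher at mature green. The other gene of the family, Solyc02g088040, had 25, 34 and 55 TP10M, with no value at breaker, and a log2 ratio of 1.11 between the ends. Both genes were lowest in the youngest fruit, where most members were highest, and their values there were low, where rounding and the added 1 TP10M matter most.

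30S S6 (Solyc01g058190), named as an organelle protein, was the third member called higher between the ends. It had 241, 174, 260 and 746 TP10M, a log2 ratio of 1.63 between the ends and of 1.52 against breaker. The same family entry was given for a pair named after a genomic clone. Solyc02g084380 had 174, 169, 89 and 195 TP10M, also highest in the last library, with log2 ratios of -0.04 at mature green, 1.12 from breaker to the last library and 0.16 between the ends. Its namesake Solyc05g054990 had 205, 75, 40 and 72 TP10M and was highest in the youngest fruit, with a ratio of -1.44 at mature green and -1.50 between the ends.

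The 2 genes annotated as 40S S10-like were both higher at breaker than at the stages on either side. Solyc12g096540 had 1603, 667, 1450 and 627 TP10M, with a log2 ratio of 1.12 at breaker against mature green and of -1.21 at 7 days after breaker. It was the only member called higher at breaker and the only one called lower after it. Solyc01g099670 had 4400, 1610, 2910 and 2089 TP10M, with log2 ratios of 0.85 and -0.48. Reads of such copies may be shared between them, so they may not be independent. L10 (Solyc06g082670), which joins the large subunit late in its assembly, had a like course, with 6000, 2484, 3858 and 2778 TP10M and log2 ratios of 0.63 and -0.47. S29 (Solyc06g073430), a small zinc-binding protein, had 6425, 2615, 2762 and 1615 TP10M and a ratio of -0.77 after breaker.

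Several departing members differed less from the youngest fruit than the group did. L32 (Solyc04g005590) had 293, 343, 270 and 339 TP10M. 50S L14 (Solyc03g119380) had 242, 222, 169 and 208 TP10M. Mitochondrial L43 (Solyc04g014390) had 483, 554, 243 and 462 TP10M, with a low value at breaker only. 50S L21 (Solyc02g078200) had 347 TP10M in the youngest fruit and 414 in the last library, with no values between. 30S S1 (Solyc12g099110) had 242 and 387 TP10M in those libraries, a log2 ratio of 0.68. In the other direction, L12 (Solyc04g050370) had a log2 ratio of -2.51 between the ends and L14 (Solyc06g083820) of -2.14, the 2 members below the group.

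Gene copies under the same name mostly had the same direction with different values. The other L14 gene, Solyc06g008260, had 3122, 1591, 898 and 1492 TP10M and a log2 ratio of -0.97 at mature green, where its namesake had -2.06. The 3 L5-1 genes, whose product carries the smallest rRNA of the large subunit, had 7716, 2743, 2295 and 3225 TP10M (Solyc06g007670), 5457, 2471, 1205 and 2117 TP10M (Solyc06g082870) and 2981, 1480, 864 and 1760 TP10M (Solyc09g020130). Each of the 3 was lower by more than 2-fold at mature green. The S24 genes had 3014, 1946, 984 and 1217 TP10M (Solyc01g097870) and 1926, 696, 394 and 803 TP10M (Solyc06g084230), with log2 ratios of -0.63 and -1.47 at mature green. The S7-like genes had ratios of -1.11 (Solyc03g119360) and -1.42 (Solyc06g069090) there. Copies of L14 and of S24 were thus called differently, L14 with 1 copy just short of the 2-fold threshold.

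By the chromosome number in the gene identifiers, 19 of the 88 members (21.6%) were on chromosome 6, which holds 8.77% of all listed cDNAs. Chromosome 1 held 13 members, 14.8% against 14.2% of all cDNAs, and chromosome 11 held 1.

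Other genes of translation were read from annotation words. The 12 translation elongation factors, which bring aminoacyl-tRNA to the ribosome and move it along the mRNA, had 2 lower and 0 higher of 7 compared at mature green, with a median log2 ratio of -0.97. Of all cDNAs, 18.6% were lower and 10.4% higher at this step. The genes with most tags were for elongation factor 1-alpha, with 20195, 10315, 11948 and 12627 TP10M (Solyc06g005060) and 14362, 8494, 7446 and 9872 TP10M (Solyc06g009970). The 30 initiation factors had 4 lower and 1 higher of 19 at mature green, with a median of -0.22, close to that of all cDNAs. An SUI1-type factor (Solyc07g064150), which helps to choose the start codon, had 2167, 5975, 2996 and 4848 TP10M, and eIF5A (Solyc07g005560) had 5749, 4136, 2698 and 2618. The 23 nucleolar and ribosome biogenesis genes, which make and assemble rRNA and subunits, had 4 lower and 2 higher of 13, with a median of -0.33. At breaker against mature green, 2 of 9 elongation factors, 0 of 14 initiation factors and 2 of 7 biogenesis genes were lower and none was higher, with medians of -0.19, 0.02 and -0.79, against 28.2% lower and 8.68% higher of all cDNAs. After breaker, 2 of 8, 0 of 13 and 2 of 8 were higher and none was lower, with medians of 0.45, 0.40 and 0.95, against 23.4% higher and 7.26% lower of all cDNAs. Between the ends the medians of the 3 lists were -0.66 (7 compared), 0.07 (18) and -0.32 (14), against -1.02 for the ribosomal proteins.

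The 2 nucleolar genes with most tags had unlike courses. Solyc06g074720, named only for its likeness to a nucleolar phosphoprotein that interacts with the FHA domain of MKI67, had 1606, 4011, 2899 and 4695 TP10M. Solyc01g100570, annotated as a nucleolar protein, had 2615, 1281, 567 and 1458 TP10M, the course of the ribosomal proteins. No gene named for TOR was in the tables.

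Transcripts of stage and tissue were read from the same libraries. Of 13 seed storage genes, none had a value in the youngest fruit, and 10, 6 and 10 had one later, with sums of 206097, 5805 and 8315 TP10M at the later 3 stages. A 2S albumin (Solyc08g080490) had 91336, 2424 and 2423 of these. Of 16 photosynthesis genes, 15, 13, 11 and 7 had a value, with sums of 37060, 17588, 4176 and 5152 TP10M. At breaker against mature green 9 of 10 were lower and 1 was higher, and 4 of 5 seed storage genes were lower, against 28.2% lower and 8.68% higher of all cDNAs. Of 24 ripening genes, 15, 9, 6 and 12 had a value, with sums of 4944, 4090, 31558 and 23214 TP10M. Genes of the ethylene-forming enzyme ACC oxidase had 553, 1374, 16973 and 11612 TP10M (Solyc07g049530) and 422, 474, 9934 and 4489 TP10M (Solyc07g049550). Both were highest at breaker and next highest after it, and they carried most of the ripening sum at breaker. Other listed genes did not share this course, such as an ACC oxidase-like gene (Solyc11g072110) with 747 TP10M in the youngest fruit and 25 at breaker. Of the ripening genes, 2 of 2 compared were higher at breaker than at mature green, where 8.68% of all cDNAs were. Seed storage tags were thus highest at the stage where the ribosomal proteins first were low, and their part in that result was not tested.

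The sites listed on the members were those that small RNAs could pair with. The 88 cDNAs had 260 entries at 252 distinct sites under 36 small RNA names, and all 5373 cDNAs had 12952 entries. The pairing was weak in both: the median alignment penalty, which is lower for better pairing, was 6.5, and 92.7% of member entries had a penalty of 5 or more, against 90.0% of all. The name miR414 accounted for 57 member entries (21.9%), the same share as in all entries. Tags at the listed sites were 0.461%, 0.511%, 0.323% and 0.592% of the whole-cDNA tags of the members in stage order, and 0.504%, 0.599%, 0.881% and 0.556% of those of all cDNAs. Summed over the members, most tags therefore lay elsewhere on the cDNAs.

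Slicing by a plant microRNA is known to leave its cut end opposite position 10 of the small RNA. At the members' sites, position 10 held 35.7%, 42.0%, 36.5% and 38.6% of the tags in stage order, with 29.4%, 29.9%, 25.6% and 34.2% at position 9 and 34.8%, 28.1%, 37.9% and 27.3% at position 11. At the sites of all cDNAs, position 10 held 56.4%, 52.6%, 65.4% and 43.5%. The members' tags were thus spread more evenly over the 3 positions than those of all cDNAs in each library. The difference was not tested, and all cDNAs include the known microRNA targets.

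**Figure D5:**
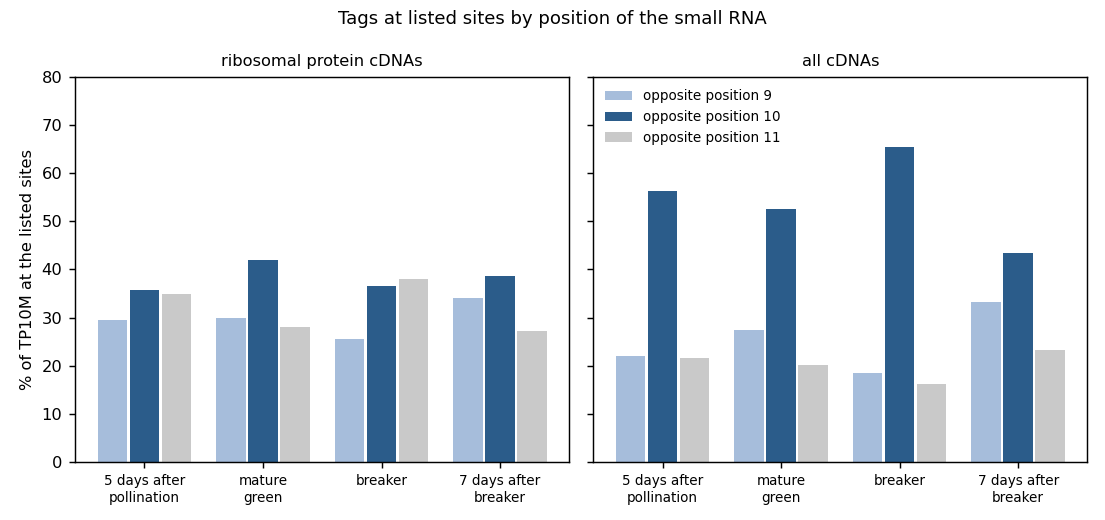
Share of the TP10M at listed sites that lay opposite positions 9, 10 and 11 of the small RNA, in each of the 4 libraries, for the 88 ribosomal protein cDNAs and for all 5373 cDNAs. Position 10 holds 35.7% to 42.0% of the members' tags and 43.5% to 65.4% of all tags.

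The site with most tags was on the S4 family gene Solyc04g005680, under miR414 with a penalty of 4. It had 81, 28, 8 and 32 TP10M at cDNA position 1115, and the next base, position 1116, had 55, 19, 9 and 32. The gene's whole-cDNA tags were 5998, 2857, 2165 and 2566 TP10M, so the site held 1.35% of them in the youngest fruit. L3 (Solyc01g104590) had 55, 20, 9 and 19 TP10M at position 1669 under miR1916, and L18a (Solyc08g016180) had 52, 9, 5 and 11 at position 788 under miR1917. S18 (Solyc06g073370) had 34, 16, 3 and 24 TP10M at position 332 under mir398. These 4 sites were highest at 5 days after pollination and lowest at breaker, as were most whole-cDNA values. They were chosen by their highest value in any library, which favours sites that peak where the members had most tags. The best-paired site, with a penalty of 1, was on the L5-1 gene Solyc06g082870 at position 890 under miR414, and had 2, 5, 2 and 3 TP10M.

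A site of category 0 or 1, which in CleaveLand is a position that holds the most tags of its cDNA alone or shared, was listed for 3 of the 88 members (3.41%), against 188 of all cDNAs (3.50%). At position 10 it was 1 member, against 132 of all cDNAs. That member was 40S S1 (Solyc06g072490), a protein of the S3Ae family, with 11, 16, 2 and 25 TP10M at cDNA position 796 under miR158, a penalty of 7, and a whole-cDNA value of 2000, 883, 766 and 1144. In the authors' deposited table the site was of category 0 at mature green, with q-values of 0.13 and 0.1 as it was listed under positions 9 and 10. 50S L4 (Solyc07g061900) had 3, 0, 2 and 8 TP10M at position 887 under miR414, with a penalty of 2.5 and, in the authors' deposited table, category 1 and a q-value of 0.38 at 7 days after breaker. The other 50S L4 gene, Solyc10g047150, had a category 0 site at 7 days after breaker with a q-value of 0.05 in the authors' deposited table, but the site had only 1 TP10M of the 2 on the whole cDNA.

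Identical site values in all 4 libraries were found for 2 pairs of copies. They were the S4 family genes Solyc01g010540 and Solyc01g010580, at sites under miR414, and the L7a genes Solyc01g097760 and Solyc10g018810, at sites under miR5302. The same tags may have been counted for both copies, and the sources used here do not say how tags with several matches were treated. Whole-cDNA values of these copies differed: 3422, 1681, 1259 and 1611 TP10M for Solyc01g010540 and 3771, 2324, 1442 and 1979 for Solyc01g010580.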

How the data were processed

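Degradome (PARE) libraries of 4 stages, 1 each, were read from 3 deposited tables. They come from CleaveLand and ITAG2.3 cDNAs, per the file headers, and hold sites opposite position 9, 10 or 11 of a small RNA. The tag values are scores in TP10M that the authors rounded to whole numbers. Each entry of category 4, which in CleaveLand marks a single read, is listed at 0 TP10M. The categories and alignment penalties are also scores deposited by the authors, and the p-values and q-values are the authors' deposited CleaveLand values. CASAVA 1.8.0 is named in the submitters' processing notes, and the sources used here give no aligner.

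After 7675 filler rows without values were dropped, 12952 entries remained. A dash was read as no value. For log2 ratios 1 TP10M was added to each value, which makes ratios of low genes too small, and calls needed a sum of 50 TP10M in both libraries and 2-fold. Size factors as an alternative were medians of ratios over 1021 cDNAs with at least 10 TP10M in each library. Classes and lists came from annotation words. Members and lists were chosen with earlier results of these data known. Named members were the 5 largest ratios in each direction, the 5 highest of each class, the departing members, those with a category 0 or 1 site, and the 5 sites with most tags (44 genes in all). Other genes named, such as copies of these, were chosen after their values were seen. The calls were tested on simulated counts with planted changes larger than 2-fold and no spread between fruits. Since the deposited values are rounded scores from single libraries, that test does not give the error of the calls here. Counts had been foreseen in the design, but rounded scores allow no counting interval. Python 3.11.15 with pandas 2.3.3, numpy 2.4.6 and matplotlib 3.10.9 was used.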

Additional observations from a re-analysis of the deposited data

How the results depend on the processing

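No paired analysis was possible because each stage had 1 library. Of the recomputed counts and class medians, 111 kept their direction and about their size, 26 moved and 3 reversed, and no named gene with a 2-fold difference changed sign. Of the 139 ratios of named genes, 21 smaller ones changed sign under median-of-ratios scaling, such as L3 at breaker against mature green. Under median-of-ratios scaling the cytosolic median log2 ratio turned to 0.0199 at breaker against mature green (-0.40 as deposited) and to -0.0315 at 7 days after breaker against breaker (0.45), and the organelle median turned to 0.21 at breaker against mature green (-0.21). The scaled counts were 4 higher and 1 lower of 55 at breaker, against 14.5% and 16.2% of all cDNAs. After it they were 5 higher and 2 lower of 57, against 8.96% and 13.6%. With a dash read as 0 TP10M, 6 members were higher at mature green, and 4 higher and 23 lower at breaker. At 7 days after breaker against breaker 26 were higher and 2 lower, and between the ends 6 were higher. Dashes were most common at breaker, where 67.0% of members and 35.0% of all cDNAs had a value. At a fold of 1.5, 4 were higher and 21 lower at breaker, and 24 higher and 2 lower after it. Without a minimum sum, 2 were lower after breaker. Using only tags at the listed sites, which few genes had in number, 0, 0, 3 and 0 members were higher and 5, 2, 0 and 4 lower in the order of the comparisons, with cytosolic medians of -1.34 at breaker and 1.65 after it. Shares of all cDNAs were not computed with dashes read as 0, at a fold of 1.5, without a minimum sum or from listed sites. The member counts under these settings therefore have no background beside them. With class read from name and family, an alternative chosen after seeing the data, the organelle median at breaker was -1.15 over 5 genes. For these the cause was not tested, beyond the scaling's own shift and the fewer or added genes. The depth of each library limits low values and is unknown.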
